A study of Homo sapiens with 6 samples.

Results

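The VEGF family was followed here through 10 genes, the 5 ligands VEGFA, VEGFB, VEGFC, VEGFD and PGF, the 3 receptor tyrosine kinases FLT1, KDR and FLT4, and the 2 neuropilins NRP1 and NRP2. They were taken by gene symbol from the deposited table of 20289 genes, and all 10 were found. RNA was sequenced from 6 libraries labelled as T24, an established human bladder cancer cell line grown in medium with fetal bovine serum and transfected with plasmids by lipofection. In 3 libraries the label gives a vector plasmid (Vector) and in 3 a pcDNA3.1 plasmid that overexpresses LINC00665, a long non-coding RNA, and the design text names 3 independent experiments. The stated interest of the study is how LINC00665 acts in lymph node metastasis of bladder cancer, and the lymphatic branch of the VEGF family bears on that question.

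VEGF ligands are secreted dimers. VEGFA binds FLT1 and KDR and drives the growth of blood vessels, VEGFB and PGF bind FLT1, and VEGFC and VEGFD bind FLT4 and, once cleaved, KDR, which drives the growth of lymphatic vessels. NRP1 and NRP2 are membrane proteins without a kinase that bind both VEGF ligands and class 3 semaphorins. In tumours the ligands are typically made by the cancer cells, while the 3 receptors are best known from endothelial cells.

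The libraries of the 2 labels stood far apart as a whole, and this frames every value that follows. Depth ranged from 17289788 to 22725687 expected counts per library. Pearson's r of log2 CPM (counts scaled to library size) across genes was 0.967 to 0.99 within a label and 0.659 to 0.68 between labels. A test of sample identity put 3 of the 6 libraries at odds with the cell line that the labels give, so groups are called by their labels, and cell line and plasmid cannot be told apart. Where a gene is said below to rise or fall, only a difference between the labels is meant. LINC00665 has 0 rows in the table used here, so its level was not analysed here. Markers of urothelium, the tissue of origin of T24, were nearly absent under the Vector label. The summed level of 18 urothelial markers was 22.1 to 28.1 CPM in the libraries labelled Vector and 7260 to 9080 CPM in those labelled LINC00665. Among them GATA3, a transcription factor of luminal urothelium, had 3 counts in all under the Vector label, and the basal factor TP63 had 5. Of all tested genes, 34.2% were called higher under the LINC00665 label and 29.3% lower. Of the 15 urothelial markers tested, 15 were higher under the LINC00665 label. Of these, 10 passed the filter on low counts only through that label, so their direction was fixed, and 5 passed it within either label. For 17 kidney tubule markers the sums were 381 to 545 CPM under Vector and 34.2 to 36 CPM under LINC00665, with 5 of 6 tested genes lower and 1 higher. Among those that pass the filter within either label, 1 was lower and 0 higher. PAX8, a kidney transcription factor, stood at 262 and 14.7 CPM. The part of these marker differences in the VEGF family results was not tested. With no filter on low counts 1 urothelial marker was lower, and with at least 1 CPM required in all 6 libraries 4 urothelial markers were higher and 1 kidney marker was lower.

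Of the 10 genes, 8 were abundant enough to be tested and 8 were higher under the LINC00665 label, at an adjusted p of 0.05 by edgeR's quasi-likelihood test. That call was reached by 63.5% of all tested genes in either direction, by 34.2% as higher and by 29.3% as lower. Among the 8, the 3 genes FLT1, KDR and NRP2 passed the filter on low counts only through the libraries labelled LINC00665, so their direction was fixed by the filter. The other 5, VEGFA, VEGFB, VEGFC, PGF and NRP1, would have passed it within either label alone. VEGFD and FLT4 were at or near 0 counts under both labels and were not tested. The median log2 fold change of all 13552 tested genes was 0.03. For each of the 8, the libraries of the 2 labels did not overlap, as was the case for 70.2% of all tested genes and for 37.9% with the higher values under LINC00665. Exact permutation of the labels (two-sided) gave p = 0.1 for each, which is the minimum for this design. With at least 1 CPM required in all 6 libraries, 5 of the 10 genes were called higher, since FLT1, KDR and NRP2 were then not tested.

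**Figure D1:**
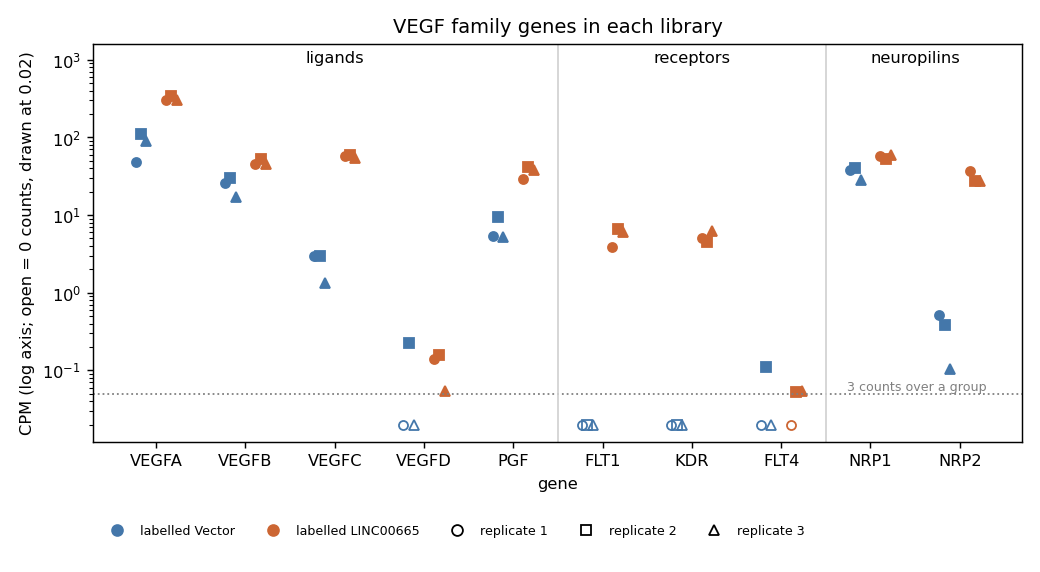
CPM of the 10 VEGF family genes in each of the 6 libraries, on a log axis, with blue points for libraries labelled Vector, orange points for those labelled LINC00665 and a marker shape for each replicate. Open points had 0 counts and the dotted line is 3 counts over a group; the groups of VEGFA, VEGFC, PGF and NRP2 lie far apart, and FLT1 and KDR have counts only under the LINC00665 label.

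Promoter sequences are shown for 3 genes that were far higher under the LINC00665 label (VEGFC, KDR and NRP2) and for VEGFD, which stayed near 0 under both. They are the 250 bases before the RefSeq start of each gene (GRCh38.p14, the assembly called hg38), written 5′ to 3′ on the gene's strand. Capitals mark the GC box, the letters GGGCGG or, on the other strand, CCGCCC, where matches may overlap.
VEGFC, chr4:176792923-176793172, minus strand: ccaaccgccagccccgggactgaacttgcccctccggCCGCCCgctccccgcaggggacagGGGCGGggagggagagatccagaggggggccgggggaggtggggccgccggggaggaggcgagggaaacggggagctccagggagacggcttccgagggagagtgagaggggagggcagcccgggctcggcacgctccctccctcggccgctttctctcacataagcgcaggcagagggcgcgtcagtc
KDR, chr4:55125596-55125845, minus strand: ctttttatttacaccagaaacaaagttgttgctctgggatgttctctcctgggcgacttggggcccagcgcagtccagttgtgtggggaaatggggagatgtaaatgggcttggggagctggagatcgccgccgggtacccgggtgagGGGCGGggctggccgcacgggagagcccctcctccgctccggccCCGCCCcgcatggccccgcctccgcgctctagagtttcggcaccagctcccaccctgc
NRP2, chr2:205682251-205682500, plus strand: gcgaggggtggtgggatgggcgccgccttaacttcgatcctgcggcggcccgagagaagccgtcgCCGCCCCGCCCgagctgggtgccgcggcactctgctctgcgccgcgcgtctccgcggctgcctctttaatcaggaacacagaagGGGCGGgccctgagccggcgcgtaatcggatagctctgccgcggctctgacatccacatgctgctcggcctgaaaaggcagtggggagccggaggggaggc
VEGFD, chrX:15384414-15384663, minus strand: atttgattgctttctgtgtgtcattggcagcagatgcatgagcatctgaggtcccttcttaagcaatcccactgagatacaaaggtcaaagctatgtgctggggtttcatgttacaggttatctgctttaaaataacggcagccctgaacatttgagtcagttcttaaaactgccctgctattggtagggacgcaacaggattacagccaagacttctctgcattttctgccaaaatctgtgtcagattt
The VEGFC window held 22 CpG dinucleotides and 2 GC boxes, that of KDR 17 and 2, and that of NRP2 29 and 3. VEGFD had 2 CpG dinucleotides, 0 GC boxes and 43.2% G and C. Of the 10 genes, 7 had an entry in the promoter table, and the other 3 windows, in VEGFB, PGF and FLT1, held 18 to 30 CpG dinucleotides and 2 to 6 GC boxes. VEGFA, FLT4 and NRP1 were the 3 without one. Across 35114 promoters of the same length the median was 11 CpG dinucleotides and 58% G and C, and 42.6% held a GC box. The letters ACGTG, or CACGT on the other strand, are a form of the core of the hypoxia response element. They had 0 matches in the 7 windows and were found in 18.5% of all promoters. Other forms of that core were not searched, so its absence from these windows is not shown. The VEGFD window and no other of the 7 held the AP-1 site TGACTCA on either strand, which was in 4.2% of all promoters. These are matches of letters within one window per gene.

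VEGFA, the main blood vessel growth factor, was clearly expressed in every library and higher under the LINC00665 label. On chromosome 6 at 43770184 to 43786487, plus strand, it stood at 49, 112 and 90.3 CPM in Vector 1 to 3 and at 301, 339 and 301 CPM in LINC00665 1 to 3. The lowest library labelled LINC00665 was 301 CPM against 112 CPM in the highest labelled Vector, and Vector 1 lay apart from the other libraries of its label. The means were 83.7 ± 31.9 and 314 ± 22.1 CPM (SD, n = 3), which is 1.91 on the log2 scale with SE 0.28 and an edgeR adjusted p of 0.00049. Leaving out 1 library at a time gave 1.63 to 2.17.

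VEGFC, the main lymphatic growth factor, showed the largest difference among the ligands. The gene lies on chromosome 4 at 176683538 to 176792727, minus strand. Its levels were 2.94, 3 and 1.35 CPM under Vector (63, 54 and 26 counts) and 58.4, 59.2 and 54.7 CPM under LINC00665 (1256, 1126 and 1016 counts). The values under LINC00665 were close to each other, and Vector 3 was the lowest library. The log2 fold change was 4.56 (SE 0.29, edgeR adjusted p = 4.5e-06), and 4.27 to 4.73 when 1 library was left out at a time.

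PGF, placental growth factor, a ligand of FLT1 alone among the 3 receptors, was also higher. On chromosome 14 at 74941834 to 74955784, it stood at 5.36, 9.33 and 5.23 CPM under Vector and at 29.2, 41.5 and 38.1 CPM under LINC00665. Every library labelled LINC00665 was more than 3 times the highest library labelled Vector. The log2 fold change was 2.45 (SE 0.27, edgeR adjusted p = 9.6e-05).

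VEGFB, a FLT1 ligand tied to fatty acid handling and cell survival more than to vessel growth, differed least among the tested ligands. Its levels on chromosome 11 (64234538 to 64238793) were 25.7, 29.7 and 17.3 CPM under Vector and 46, 53.4 and 45.5 CPM under LINC00665. The groups did not overlap, with Vector 3 the lowest. The log2 fold change was 1 (SE 0.21, edgeR adjusted p = 0.0036). It was not called when a fold minimum of 1 on the log2 scale was required.

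VEGFD, the second lymphatic ligand (chromosome X, 15345591 to 15384376), had 0, 4 and 0 counts under Vector and 3, 3 and 1 counts under LINC00665. The ratio of the summed counts, scaled to library size, was 1.74 with an exact 95% binomial interval of 0.442 to 8.11, and at this depth a difference was not detectable. Such intervals cover counting error only. The window printed for VEGFD above is the one low in CpG.

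FLT1 and KDR had 0 counts in the libraries labelled Vector and were low in those labelled LINC00665. FLT1 (VEGFR1; chromosome 13, 28300344 to 28495145) had 0 counts in all 3 libraries labelled Vector and 83, 127 and 112 counts, or 3.86, 6.67 and 6.03 CPM, under LINC00665. Set against 3 counts over the 3 libraries labelled Vector, FLT1 was at least 107-fold higher. KDR (VEGFR2, the main signalling receptor for VEGFA; chromosome 4, 55078259 to 55125595) likewise had 0 counts under Vector. It had 108, 86 and 117 counts, or 5.02, 4.52 and 6.3 CPM, under LINC00665, and was at least 103-fold higher. The edgeR adjusted p was 6.2e-05 for FLT1 and 3.8e-05 for KDR. Both entered the test only through the libraries labelled LINC00665, so their direction was fixed by the filter and these p-values add no support. The limit that 0 counts allow under Vector was 0.051 CPM. In RNA from a whole culture, fewer cells with a transcript and less of it per cell cannot be told apart.

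FLT4 (VEGFR3, the receptor of VEGFC and VEGFD on lymphatic endothelium; chromosome 5, 180601506 to 180649624) had 0, 2 and 0 counts under Vector and 0, 1 and 1 under LINC00665. Both sums, 2 and 2 counts, are under 3, so no ratio is given, and at this depth a difference was not detectable.

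Most endothelial markers were at or near 0. The 4 called higher stood at 1.36 to 4.83 CPM under LINC00665, where FLT1 and KDR stood at 5.52 and 5.28 CPM. Of the 18 endothelial markers, 10 had 0 counts in all under Vector and 6 under LINC00665. Of the 6 tested, 4 were higher and 2 lower, beside 34.2% and 29.3% of all tested genes. The cadherin CDH5 stood at 0.436 and 0.484 CPM, the angiopoietin receptor TEK at 0 and 0.274 CPM, and EMCN, PLVAP and CLEC14A at 0 counts under both labels. PECAM1, an adhesion molecule of endothelium and blood cells, was at 0.317 ± 0.18 and 4.83 ± 0.3 CPM (log2 fold change 3.93, edgeR adjusted p = 6.4e-05), and VWF, a clotting protein of endothelium, had 0 counts and 1.36 CPM. ESAM (0.956 and 4.14 CPM) and ROBO4 (0.242 and 2.43 CPM) were higher too, and EGFL7 was lower (6.23 and 2.89 CPM). All 4 that were higher passed the filter only through the LINC00665 label. The summed level went the other way, 104 to 148 CPM under Vector and 44.8 to 52.7 CPM under LINC00665, most of it from the TGF-beta co-receptor ENG (113 and 32.4 CPM). Of 6 lymphatic endothelial markers, PDPN alone was tested and was at least 150-fold higher, LYVE1 had 0 and 1 counts, and the summed level was 0.155 to 0.444 and 8.6 to 9.4 CPM. With no filter on low counts 7 endothelial and 2 lymphatic markers were higher, and with at least 1 CPM in all 6 libraries 0 and 0 were. The number of lymphatic markers that were higher was 2 without Vector 2 or without Vector 3.

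Counts of fibroblast and leukocyte markers are to be read beside the shares of all tested genes, 34.2% higher and 29.3% lower. Among 13 fibroblast markers, 7 of 8 tested were higher and 0 lower, with summed levels of 152 to 169 and 525 to 576 CPM. In this list 5 had 0 counts under Vector against 1 under LINC00665. Of the 7, only 2 passed the filter on low counts within either label. Of 14 leukocyte markers, 4 of 4 tested were higher, CD74 by far the most (0.169 and 122 CPM), with sums of 11 to 17.3 and 117 to 189 CPM. Of the 4, only 1 passed that filter within either label. The pan-leukocyte gene PTPRC had 1 and 0 counts, and 8 of the 14 had 0 counts under each label. With at least 1 CPM in all 6 libraries, 2 fibroblast and 1 leukocyte markers were higher. The part of these cell type markers in the receptor values was not tested.

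The neuropilins were expressed under both labels in the case of NRP1 and almost only under LINC00665 in the case of NRP2. NRP1, a co-receptor of VEGFA and of SEMA3A (chromosome 10, 33177492 to 33336262), stood at 38.2, 40.1 and 28.6 CPM under Vector and at 57.1, 52.2 and 59.7 CPM under LINC00665. The groups did not overlap, but the gap between the highest library labelled Vector and the lowest labelled LINC00665 was small beside those of the ligands VEGFA, VEGFC and PGF. The log2 fold change was 0.66 (SE 0.17, edgeR adjusted p = 0.009), the smallest of the 8. With total-count scaling it was 0.5 (adjusted p = 0.032), and the largest adjusted p when 1 library was left out was 0.047.

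NRP2, a co-receptor of VEGFC and of SEMA3F (chromosome 2, 205681990 to 205798133), had 11, 7 and 2 counts under Vector and 806, 525 and 513 counts under LINC00665. In CPM these were 0.513, 0.389 and 0.103 against 37.5, 27.6 and 27.6. The libraries labelled Vector all lay under 1 CPM, and NRP2 was the member with the widest gap among those with counts under both labels. The ratio of summed counts was 91.7, with an exact 95% binomial interval of 59.2 to 150 for counting error, and the fitted log2 fold change was 6.48 (SE 0.39, edgeR adjusted p = 3.2e-06). NRP2 too entered the test only through the libraries labelled LINC00665, so that p-value adds no support for the direction.

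**Figure D2:**
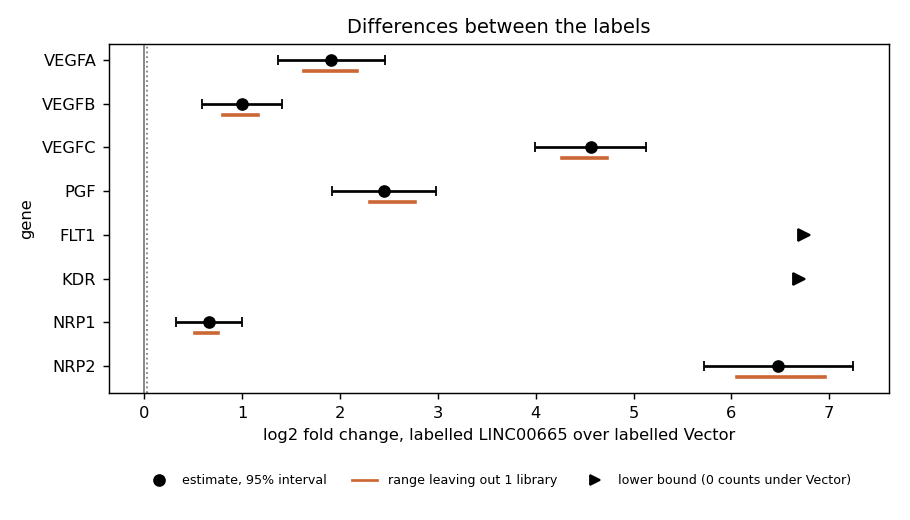
Log2 fold change of the 8 tested VEGF family genes, libraries labelled LINC00665 over those labelled Vector (n = 3 each), with nominal 95% intervals as black bars, the range when 1 library is left out in orange, and lower bounds as triangles for FLT1 and KDR. The intervals take the estimate as normally distributed, which makes them too narrow at n = 3. The dotted line is the median of all tested genes (0.03), and all estimates lie to its right, from 0.66 for NRP1 to 6.48 for NRP2.

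Levels of different genes were compared on FPKM, which the authors normalised for transcript length. The 5 ligands summed to 40.5 to 63.8 FPKM in the libraries labelled Vector and to 164 to 181 FPKM in those labelled LINC00665. Under Vector the order was VEGFA (33.3 ± 11.3 FPKM), VEGFB (14.4 ± 3.67), PGF (4.08 ± 1.37) and VEGFC (1.13 ± 0.436; SD, n = 3). Each library kept this order. Under LINC00665 VEGFA was at 103 ± 4.03 FPKM, followed by VEGFB (25.5 ± 1.66) and VEGFC (24 ± 0.471), whose libraries overlapped. PGF (20.1 ± 3.41 FPKM) was below both in each library labelled LINC00665. In replicate 1 VEGFC (24.47 FPKM) was slightly above VEGFB (24.36 FPKM), and in the other libraries labelled LINC00665 it was below.

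The makeup of the ligand pool was compared as shares of the summed FPKM, with no test. VEGFA made up 50 to 74% of the summed ligand FPKM under Vector and 59.2 to 60.4% under LINC00665, so the groups overlapped. VEGFC made up 1.16 to 3.43% under Vector and 13.3 to 14.9% under LINC00665, VEGFB 18.9 to 38.3% and 14.3 to 15.1%, and PGF 5.9 to 8.87% and 9.85 to 12.5%, and none of these overlapped. VEGFA exceeded VEGFC 14.6-, 28.4- and 64.1-fold in Vector 1 to 3 and 4.05-, 4.45- and 4.37-fold in LINC00665 1 to 3. Scaling between libraries does not enter such ratios. The log2 ratio of VEGFC to VEGFA was 2.8 higher under LINC00665, and the exact permutation p was 0.1, or 0.2 after Benjamini-Hochberg adjustment over the 4 ratios computed. The log2 ratio of PGF to VEGFA differed by 0.64 and that of VEGFB to VEGFA by -0.84, each with an exact permutation p of 0.2.

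Among the 5 genes for membrane proteins, NRP1 was the highest on FPKM under both labels. It made up 97.4 to 98.5% of their summed FPKM under Vector and 67.9 to 69% under LINC00665. NRP2 made up 1.12 to 1.68% under Vector and 21.3 to 25.4% under LINC00665, where FLT1 held 3.61 to 6.83% and KDR 3.04 to 3.63%. NRP1 exceeded NRP2 by 58.3-, 86.7- and 66.2-fold in Vector 1 to 3 and by 2.67-, 3.23- and 3.1-fold in LINC00665 1 to 3. The log2 ratio of NRP2 to NRP1 differed by 4.54 (exact permutation p = 0.1, adjusted 0.2 over the 4 ratios). Under Vector the NRP2 values rest on 11, 7 and 2 counts, so its shares and ratios there are rough and their spread is not informative. NRP2 passed the filter on low counts only through the LINC00665 label, so that p-value adds no support for the direction.

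**Figure D3:**
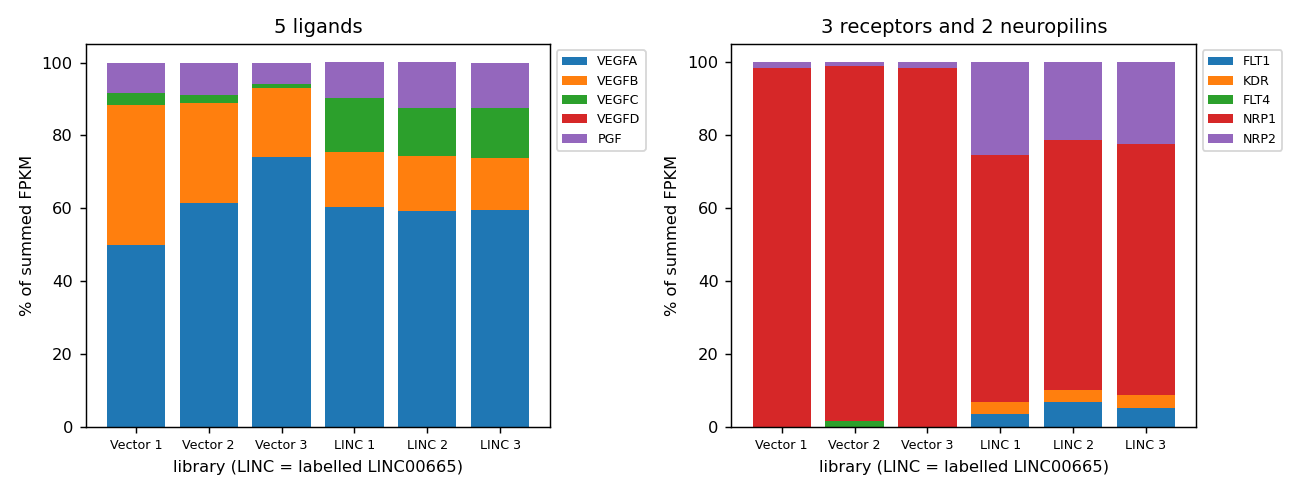
Share of each gene in the summed FPKM of the 5 ligands (left) and of the 3 receptors and 2 neuropilins (right), in percent, as stacked bars for each of the 6 libraries. VEGFC holds 13.3 to 14.9% of the ligand sum in the libraries labelled LINC00665 and at most 3.43% in those labelled Vector, and NRP2 holds 21.3 to 25.4% against at most 1.68%.

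The deposited count and FPKM of a gene together imply the mean transcript length that the authors' estimate used in that library. Over the 222 to 256 genes per library that have 1 annotated transcript in GENCODE v29 and over 10 FPKM, the implied length was a median of 0.997 to 0.999 times the annotated one. The 5th percentile of that ratio was 0.771 to 0.789 and the 95th 1.08 to 1.11 across libraries, so the length of a single gene can depart from the annotation by as much. NRP1 had implied lengths of 3509, 4383 and 3525 nt under Vector and of 2989, 3071 and 2906 nt under LINC00665, over 553 to 1228 counts per library. All 3 libraries labelled LINC00665 were shorter than all 3 labelled Vector. The mean difference was -817 nt (exact permutation p = 0.1, adjusted 0.12 over the 6 members compared). Among 9978 genes with at least 1 FPKM and 20 counts in every library, the groups did not overlap in 31.5%, and in 5.43% they also differed at least 1.2-fold. NRP1 transcripts annotated as coding range from 372 to 5882 nt, and shorter forms that encode soluble NRP1 are known alongside the membrane form.

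FLT1 had implied lengths of 3804, 3951 and 4041 nt in LINC00665 1 to 3. These lie between the annotated coding transcript of 2969 nt and those of 6337 to 7092 nt. Soluble FLT1, a secreted decoy that binds VEGFA and PGF, is encoded by short transcripts of this gene. KDR was at 5830 to 5867 nt, within that spread of its annotated 5833 nt. VEGFC (2259 to 2264 nt), PGF (1699 to 1720 nt) and VEGFB (1774 to 1790 nt) differed between labels by means of -4, -9 and 13 nt, small but without overlap. The VEGFB length exceeds its longest transcript in GENCODE v29 (1380 nt). Which annotation the authors used is not given, so where the FLT1 and NRP1 lengths fall among GENCODE v29 transcripts is uncertain. VEGFA overlapped between labels, at 2370 to 2963 nt under Vector and 2841 to 2908 nt under LINC00665. NRP2 ran from 843 to 3681 nt under Vector over 2 to 11 counts, too few to compare, and from 4168 to 5242 nt under LINC00665. The implied length is an estimate from short reads, and single transcripts were not measured.

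**Figure D4:**
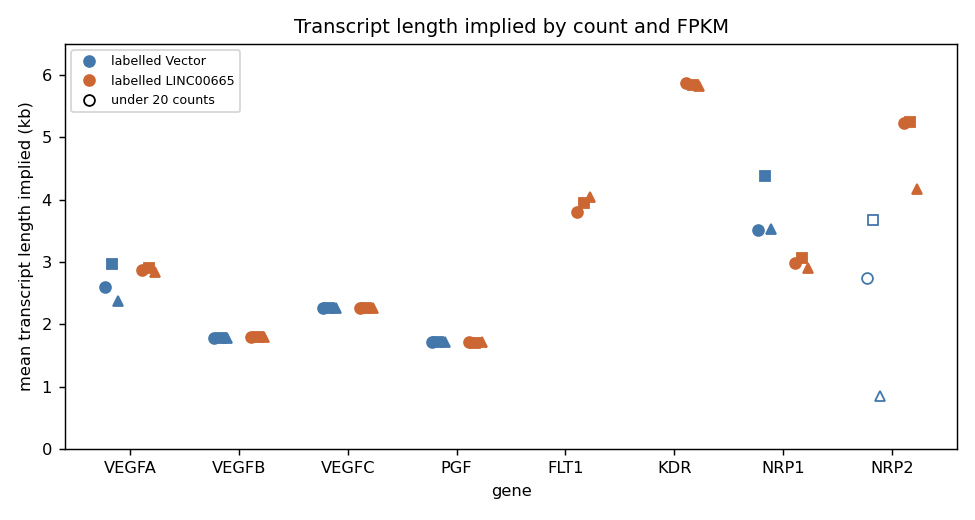
Mean transcript length in kb implied by the deposited count and FPKM, for 8 genes in each library, with blue points for libraries labelled Vector, orange for LINC00665, a shape for each replicate and open points where the library had under 20 counts. NRP1 lies at 2906 to 3071 nt under LINC00665 and at 3509 to 4383 nt under Vector, while VEGFB, VEGFC and PGF hardly vary.

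Genes that set VEGF transcription differed in both directions. Of 13 listed regulators, 6 were higher, 3 lower and 4 not called, with a median log2 fold change of 1.11. Among those that pass the filter within either label, 5 were higher and 3 lower. This list and those below are to be read beside the shares of all tested genes, 34.2% higher and 29.3% lower. The Krüppel-like factor KLF4 rose from 3.04 ± 0.773 to 146 ± 27.7 CPM and the AP-2 factor TFAP2A from 8.13 ± 2.85 to 73.6 ± 7.56 CPM. The oxygen-regulated factor HIF1A was at 116 ± 54.9 and 251 ± 43.9 CPM (log2 fold change 1.11, edgeR adjusted p = 0.023), while its relative EPAS1 stood at 260 and 305 CPM and was not called. VHL, which targets both for destruction, was higher (106 ± 20.7 and 274 ± 40.4 CPM). The hydroxylase EGLN3, itself induced by hypoxia, had 2 counts (0.034 CPM) under Vector and 26.5 ± 6.12 CPM under LINC00665. HIF1AN, which blocks the activity of HIF proteins, was lower (110 and 43.8 CPM). The number lower was 1 without LINC00665 1, without LINC00665 2 or with a fold minimum of 1 on the log2 scale.

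Of 21 hypoxia markers tested outside the family, 8 were higher, 4 lower and 9 not called, with a median log2 fold change of -0.27. The share that was higher is near the 34.2% of all tested genes. Among those that pass the filter within either label, 7 were higher and 4 lower. CA9, a surface carbonic anhydrase, was at 0.707 ± 0.841 and 74.3 ± 27.8 CPM, the vasodilator peptide ADM at 9.57 ± 1.83 and 476 ± 204 CPM, and the mTOR inhibitor DDIT4 at 205 ± 69.9 and 1090 ± 248 CPM. The glycolytic enzyme ENO1 was lower (5360 ± 586 and 2840 ± 296 CPM), and PDK1, PFKFB3 and PFKFB4 were lower too. The number lower depended on scaling and on single libraries: it was 9 with total-count scaling, 7 on FPKM, 8 without Vector 3, 2 without LINC00665 1 and 1 with a fold minimum.

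Maturation of VEGFC and VEGFD needs proteases and cofactors. Of 15 such genes listed, 12 were tested, 8 were higher, 1 lower and 3 not called, with 5 higher and 0 lower among those that pass the filter within either label, and the median log2 fold change was 1.95. CCBE1, the cofactor that brings VEGFC to its protease, stood at 3.26 ± 1.96 and 28.1 ± 4.66 CPM (log2 fold change 3.11, edgeR adjusted p = 2e-04). ADAMTS3, the protease that activates VEGFC, was at 1.64 ± 0.74 and 3.12 ± 0.0551 CPM and was not called (adjusted p = 0.056). FURIN, which cleaves the VEGFC precursor, was at 70.8 ± 33.9 and 119 ± 5.8 CPM and was not called either. PCSK5, another convertase for that step, had 0 counts under Vector and was at least 184-fold higher. EFEMP1, a matrix protein, had 7 counts (0.121 CPM) under Vector and 30.6 ± 4.22 CPM under LINC00665. The plasminogen activators PLAT (11.1 and 322 CPM) and PLAU (338 and 1250 CPM) and the protease CTSD (339 and 1070 CPM) were higher, whereas ADAMTS14 was lower (5.27 and 0.479 CPM). With at least 1 CPM in all 6 libraries 5 were higher and 0 lower.

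Class 3 semaphorins, which also bind neuropilins, were listed with the plexin co-receptors and the adaptor GIPC1. Of 14 listed, 11 were tested, 7 were higher, 1 lower and 3 not called, with a median log2 fold change of 2.67. Among those that pass the filter within either label, 4 were higher and 1 lower. SEMA3A, the main NRP1-binding semaphorin, stood at 3.19 ± 0.0804 and 45.2 ± 5.37 CPM, and SEMA3F, the main NRP2-binding one, at 1.48 ± 0.365 and 33.7 ± 2.55 CPM (log2 fold change 4.49, edgeR adjusted p = 1.3e-06). SEMA3C, a further class 3 semaphorin, was at 210 ± 88.7 and 130 ± 14.2 CPM and was not called. PLXNA2 had 10 counts (0.172 CPM) under Vector and 35.5 ± 5.22 CPM under LINC00665. PLXND1 rose from 10.8 to 72.1 CPM, while PLXNA1 was lower (286 ± 58.3 and 119 ± 24.3 CPM). GIPC1, the adaptor on the neuropilin tail, was higher (122 and 319 CPM). The number lower was 2 with total-count scaling or without Vector 2, and 4 were higher with at least 1 CPM in all 6 libraries.

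Membrane partners of the receptors differed in both directions, as did all tested genes (34.2% higher, 29.3% lower). Of 15 tested partners, 8 were higher and 5 lower, 7 and 5 among those that pass the filter within either label, with a median log2 fold change of 1.37. The integrin subunit ITGB3, a partner of KDR, fell from 146 ± 41.7 to 3.8 ± 2.26 CPM (log2 fold change -5.27, edgeR adjusted p = 1.8e-05), and ITGB1 from 1150 to 545 CPM. Among heparan sulfate carriers, which hold VEGF at the cell surface and in the matrix, SDC2 fell from 56 ± 7.11 to 1.35 ± 0.745 CPM, while HSPG2 (58 to 596 CPM), SDC4 (247 to 696 CPM) and GPC1 (48.1 to 124 CPM) rose. EFNB2, which directs the uptake of VEGF receptors, rose from 6.18 ± 2.25 to 395 ± 27.5 CPM. DAB2, an endocytic adaptor, rose from 1.72 to 52.3 CPM. MCAM, a co-receptor of KDR, rose from 11.8 ± 1.44 to 199 ± 7.62 CPM. With at least 1 CPM in all 6 libraries, or with a fold minimum, 3 were lower.

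Of 52 tested signalling genes below the receptors, 18 were higher, 15 lower and 19 not called, with a median log2 fold change of 0.06. These shares are near those of all tested genes, 34.2% higher and 29.3% lower. Among those that pass the filter within either label, 14 were higher and 15 lower. PLCG1, the phospholipase that KDR activates, stood at 237 ± 12.8 and 204 ± 14.2 CPM and was not called (log2 fold change -0.22, edgeR adjusted p = 0.18). AKT1, SRC and PTK2 were not called either. The adaptor SH2D2A, which binds KDR, had 0 counts under Vector and was at least 276-fold higher, and RCAN1, a feedback inhibitor of calcineurin, rose from 18.9 ± 5.25 to 203 ± 33.9 CPM. The kinase MAPK13 rose from 0.718 ± 0.325 to 94.5 ± 2.48 CPM. The kinase PRKCA fell from 108 to 30.6 CPM and the GTPase NRAS from 253 to 75.4 CPM. With a fold minimum of 1 on the log2 scale 8 were lower.

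Extracellular proteins that bind or restrain VEGF included members far higher and far lower. Of 23 listed, 19 were tested, 11 were higher and 3 lower, 6 and 3 among those that pass the filter within either label, with a median log2 fold change of 3.02. FN1, a matrix protein that binds VEGF, rose from 341 ± 145 to 5710 ± 126 CPM (log2 fold change 4.06, edgeR adjusted p = 9.4e-06). The angiogenesis inhibitors THBS2 (1.04 to 20 CPM) and ADAMTS1 (1.53 to 69.2 CPM) rose, as did the matrix protein SPARC (0.487 to 116 CPM), while COL18A1, the source of endostatin, fell from 696 ± 81.9 to 49.9 ± 6.98 CPM and VASH1 from 37.4 to 10.8 CPM. The matrix proteins CCN1 and CCN2 varied widely among libraries labelled Vector (106 ± 109 and 61.2 ± 57.6 CPM) and were not called. With at least 1 CPM in all 6 libraries 5 were higher.

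Other angiogenic ligands and receptors were often undetected. Of 30 listed, 15 were tested, 9 were higher and 1 lower (median log2 fold change 2.74), 4 and 1 among those that pass the filter within either label, and 12 had 0 counts under Vector against 6 under LINC00665. EDN1, a vasoconstrictor peptide, had 14 counts (0.24 CPM) under Vector and 54.5 ± 9.79 CPM under LINC00665. The Notch ligands DLL4 and JAG1 rose from 0.165 to 6.98 and from 57.8 to 509 CPM. ANGPTL4, a lipase inhibitor induced by hypoxia, stood at 178 ± 95.8 and 198 ± 48.5 CPM and was not called. ESM1, a proteoglycan known as a VEGF response gene in endothelium, had 3 counts under Vector, and the ratio was 128 with an exact 95% binomial interval of 43.3 to 622. With at least 1 CPM in all 6 libraries 3 were higher, and 2 were lower with total-count scaling, with no filter, on FPKM, without Vector 2 or without LINC00665 2.

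**Figure D5:**
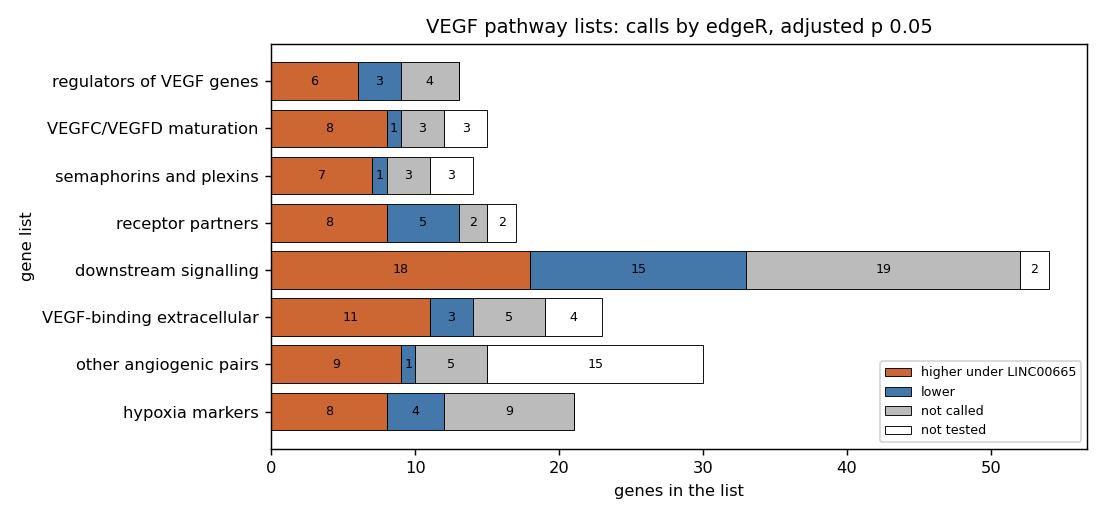
Number of genes higher (orange), lower (blue), not called (grey) and not tested (white) by edgeR at an adjusted p of 0.05 in 8 VEGF pathway lists, as stacked horizontal bars. Downstream signalling has 18 higher and 15 lower of 52 tested, near the shares of all tested genes (34.2% and 29.3%). Of these, 14 and 15 pass the filter within either label. Maturation proteases and cofactors have 8 higher, of which 5 pass the filter within either label, and 1 lower.

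By the distance between profiles of log2 CPM over the 6 libraries, each centred on its own mean, the genes nearest to VEGFA were TESK2, FLVCR2 and GPR108 (distances 0.39, 0.39 and 0.39). GPR108 stood at 27.8, 45.6 and 39.8 CPM under Vector and at 134, 138 and 133 CPM under LINC00665, with its lowest value in Vector 1, as for VEGFA. Nearest to VEGFC were GXYLT2, PDK4 and TJP3 (distances 0.36, 0.41 and 0.47). PDK4, a kinase that inhibits pyruvate dehydrogenase, was at 1.77, 2.67 and 1.03 CPM and at 45, 47.7 and 38.7 CPM. The measure rests on 6 libraries that fall into 2 clusters.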

How the data were processed

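RNA sequencing of 3 libraries labelled Vector and 3 labelled LINC00665 was re-analysed from the table the authors deposited. HISAT2 2.0.4 and the hg38 build are named, without a role, per the submitters' processing notes. How reads were counted, on which annotation and whether by strand, is not given in the sources used here. The table holds expected counts per gene and library that the authors deposited without normalisation, and FPKM values, which per the file headers the authors normalised for length and depth. Reads of VEGFA, VEGFC, KDR, NRP1 and NRP2 and of the antisense genes annotated over them cannot be told apart.

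Expected counts were rounded, kept where filterByExpr passed them, given TMM factors and tested in edgeR 4.0.16 (R 4.3.3, glmQLFit and glmQLFTest, no covariate), with Benjamini-Hochberg adjustment over 13552 genes. CPM uses the same scaling, and ± is the SD over 3 libraries. On simulated data with few changed genes, balanced in direction, the test recovered known changes. In these data 63.5% of tested genes were called, so the simulation does not check the scaling in this setting. Bounds set a group with 0 counts at 3 counts over that group. The alternatives were other scalings, filters, fold minimum, DESeq2 1.42.0, limma 3.58.1 on counts and on FPKM, the replicate block and leaving out each library. Figures were drawn with matplotlib 3.10.9, and coordinates are GENCODE v29 (GRCh38).

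The VEGF genes, the 14 lists and the tests were chosen with earlier results of these data known. The rule for named genes takes the 10 members, the 4 genes of each list with the smallest p, list genes at 0 counts under 1 label and above 1 CPM under the other, and the 3 nearest profiles to VEGFA and VEGFC. Not all of these are printed. Other genes named, and the implied transcript length, were chosen after their values were seen. Replicates were checked for duplicates: within a label, chi-square per degree of freedom was 10.2 to 121, above sampling noise.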

Additional observations from a re-analysis of the deposited data

How the results depend on the processing

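Each of the 8 tested VEGF family genes kept its direction in the 16 alternatives (15 for FLT1, KDR and NRP2, which 1 did not test), and each stayed past the threshold except VEGFB and NRP1 under a fold minimum of 1 on the log2 scale (log2 fold changes 1 and 0.66). FLT1, KDR and NRP2 passed the filter on low counts only through the LINC00665 label, so their direction was fixed. Their part here and in the counts below adds no support. The number called higher was 5 with at least 1 CPM in all 6 libraries, since 3 genes were then not tested, and 8 in each fit that left out 1 library. With that fold minimum, 6 of the family were called higher; for all tested genes called the number was 5691, and for all tested genes called lower it was 2156. Total-count scaling moved the median of all tested genes from 0.03 to -0.13, and NRP1 stood at 0.5 there. Leaving out the 3 libraries at odds with the labelled line was not possible, since no contrast would remain. Same-numbered libraries correlated in their deviations at 0.152, -0.132 and -0.154, so the numbers were not taken as pairs. With the replicate block, 8 members were higher and NRP1 had a log2 fold change of 0.67 (edgeR adjusted p = 0.026). FLT1 and KDR values fitted on FPKM with a pseudocount of 1 were 1.2 and 0.89, and depend on that pseudocount. VEGFD and FLT4 are limited by depth, at 2 to 7 counts per label. Among the other genes named by the rule, CD68 lost its call in 5 alternatives (without Vector 1 and without LINC00665 2 among them) and ENO1 in 1, the fold minimum.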
